A study of Saccharomyces cerevisiae with 24 samples.

Results

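The 10 genes described here encode the enzymes and enzyme subunits through which budding yeast builds and breaks down its storage carbohydrates trehalose and glycogen. They were chosen by name for their place in the pathway, and the rule used no measured value, although earlier results of these data were known. They are 10 of the 6369 genes counted. TPS1 (YBR126C), TPS2 (YDR074W), TPS3 (YMR261C) and TSL1 (YML100W) encode the trehalose synthase complex and NTH1 (YDR001C) a trehalase. GSY1 (YFR015C) and GSY2 (YLR258W) encode glycogen synthase, and GPH1 (YPR160W) glycogen phosphorylase. PGM2 (YMR105C) and UGP1 (YKL035W) encode the enzymes that turn glucose phosphate into UDP-glucose, the sugar donor of both branches. RNA was measured in 24 libraries of Saccharomyces cerevisiae grown to log phase at an optical density of 0.6 to 0.8. The 3 strains were wild type, a strain lacking RPL22A (ΔRPL22A) and a strain lacking RPL22B (ΔRPL22B), the paired genes for the large-subunit ribosomal protein Rpl22. In all 3 strains cycloheximide held ribosomes on mRNA, and sucrose gradients gave 4 pools: input, monosomes, low polysomes (light polysomes here) and high polysomes (heavy polysomes here). Every strain and pool gave 2 libraries, described as biological duplicates, which makes 12 groups. The title of the series speaks of oxidative stress, but no stress treatment is named in the labels.

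Trehalose is a disaccharide that protects proteins and membranes during heat, drying and oxidative damage, and glycogen is a branched glucose store. Both are low in rapidly dividing yeast on glucose and accumulate when growth slows or stress begins. The transcription factors Msn2 and Msn4 raise many of these genes together through a short promoter sequence, the stress response element, with the core AGGGG, and protein kinase A holds these factors back during fast growth.

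Total counts ranged from 2435632 to 10947937 per library, of which 62.5% to 97.1% lay on 7 rows of the ribosomal DNA locus. This left 314212 to 1950344 counts for other genes, and 97 to 1112 counts for the 10 genes together. The RPL22B row held 1329 counts over the 8 wild-type libraries, 6354 over those of ΔRPL22A and 0 over those of ΔRPL22B. The RPL22A row held 25, 3 and 40 counts in the same order. Counts of 7 genes specific to a cells summed to 6019, 111 and 99 in the same order, and 4 genes specific to α cells summed to 104, 38455 and 31478. MET17 counts were 0, 824 and 788 for wild type, ΔRPL22A and ΔRPL22B, and LYS2 counts were 955, 2 and 0. Wild type thus carried the transcripts of the other mating type and of other nutritional markers than both deletion strains. In a comparison of either deletion strain with wild type the deletion and these differences cannot be told apart. The comparison of ΔRPL22A with ΔRPL22B does not hold the mating type and MET17 or LYS2 differences, although HIS3 counts were 2447 in ΔRPL22A and 784 in ΔRPL22B. An earlier look at these data had set 4 libraries apart as closest to another pool. By the correlation of log2 CPM (counts per 1000000 of the TMM-scaled library size) over genes, the nearest neighbour of each of the 24 libraries lay in its own pool. Counts without the 4 libraries are given for some comparisons, where they differ from the full set.

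The promoters are shown for 3 of the genes: TSL1 and GSY1, which fell furthest in ΔRPL22A input, and TPS1, which held the most copies of the stress response element core. Each is a run of 300 bases read 5′ to 3′ on the gene's strand from the RefSeq genome, build R64, which is also called sacCer3. Capitals mark AGGGG or its reverse complement CCCCT. The window of TSL1 is chrXIII:70324-70623 on the forward strand and ends at the base before the start codon. The windows of GSY1 (chrVI:176592-176891) and TPS1 (chrII:490593-490892) lie on the reverse strand and cover bases 500 to 201 before the start codon. The printed runs hold all copies of TPS1 and GSY1 and 3 of the 5 of TSL1.
TSL1: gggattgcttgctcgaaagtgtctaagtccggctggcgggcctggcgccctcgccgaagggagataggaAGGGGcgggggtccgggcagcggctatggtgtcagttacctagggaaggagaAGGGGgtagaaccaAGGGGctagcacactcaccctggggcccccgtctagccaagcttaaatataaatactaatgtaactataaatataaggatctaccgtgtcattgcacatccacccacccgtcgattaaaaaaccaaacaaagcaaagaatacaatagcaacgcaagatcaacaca
GSY1: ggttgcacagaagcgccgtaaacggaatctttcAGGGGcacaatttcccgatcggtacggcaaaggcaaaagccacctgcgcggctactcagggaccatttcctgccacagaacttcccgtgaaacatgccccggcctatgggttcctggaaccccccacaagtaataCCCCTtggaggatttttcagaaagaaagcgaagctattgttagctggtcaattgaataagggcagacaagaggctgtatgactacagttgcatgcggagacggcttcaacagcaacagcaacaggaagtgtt
TPS1: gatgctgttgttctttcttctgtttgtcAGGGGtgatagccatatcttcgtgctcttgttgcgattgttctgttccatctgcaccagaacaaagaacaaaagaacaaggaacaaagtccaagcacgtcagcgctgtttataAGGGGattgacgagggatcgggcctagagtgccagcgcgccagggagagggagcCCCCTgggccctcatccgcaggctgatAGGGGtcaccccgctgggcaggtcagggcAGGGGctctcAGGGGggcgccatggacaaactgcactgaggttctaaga
In the 500 bases before the start codon, TPS1 held 6 copies of the core on either strand, TSL1 and PGM2 held 5 each, and TPS2 and UGP1 held 4 each. NTH1 held 3 copies, and TPS3, GSY1, GSY2 and GPH1 held 2 each. All 10 genes thus held at least 2 copies, as did 491 of 6006 promoters of the same length, 8.18% of them. At least 4 copies were present in 5 of the 10 genes and in 0.45% of all promoters. Both orientations were counted together, and no other motif was searched. A match describes these letters and is no evidence that a factor was bound in these cells. The copies lay between 490 and 152 bases before the start codon.

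**Figure D1:**
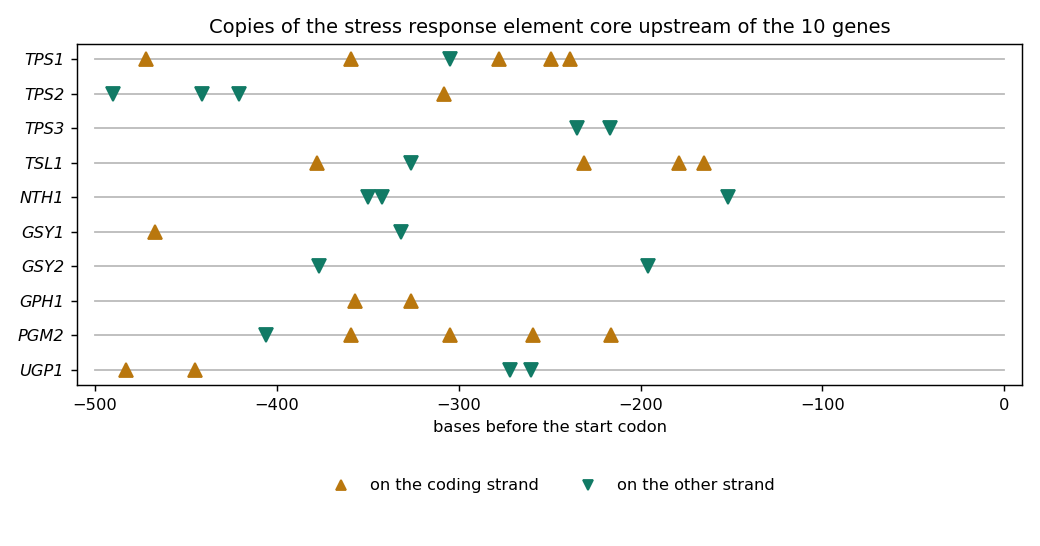
Position of each AGGGG (triangle up, coding strand) or CCCCT (triangle down, other strand) in the 500 bases before the start codon of the 10 genes, in bases. Every gene holds at least 2 copies, and TPS1 holds 6.

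All 10 genes passed the filter on low counts, and each is annotated as 1 coding exon that overlaps no other gene. The filter ran over all 24 libraries, so a gene low in 1 strain can pass through the others. GSY1 and GPH1 did so, with at most 4 and 7 counts in any ΔRPL22A library. On R64, TPS1 lies at chrII:488905-490392, TPS2 at chrIV:593893-596583, TPS3 at chrXIII:790205-793369, TSL1 at chrXIII:70624-73920 and NTH1 at chrIV:450220-452475. GSY1 lies at chrVI:174265-176391, GSY2 at chrXII:660716-662833, GPH1 at chrXVI:861306-864014, PGM2 at chrXIII:475897-477606 and UGP1 at chrXI:369891-371390. GSY1 and GSY2 share 75.9% of aligned coding bases, TSL1 and TPS3 share 74.5%, and PGM2 and its paralog PGM1 share 77.2%. None of these pairs, nor NTH1 and NTH2, shared a stretch of 50 identical bases. The handling of reads that match several genes is not given here, so the split within a pair is uncertain.

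In wild-type input, levels per kilobase of gene placed UGP1 highest at 13.8 ± 0.762 CPM per kilobase (SD, n = 2), followed by TPS1 at 11.8 ± 0.284. NTH1 at 3.33 ± 0.722, TPS2 at 3.26 ± 0.0962 and TPS3 at 3.08 ± 0.105 formed a middle group whose order lies within the spread of NTH1. TSL1 at 1.58 ± 0.93, GSY2 at 1.41 ± 0.512, PGM2 at 1.2 ± 0.449 and GSY1 at 1.02 ± 0.379 followed and did not differ beyond their spread. GPH1 was lowest at 0.475 ± 0.0677. All CPM values are relative to a library size scaled by TMM, a factor per library that sets most genes level between libraries, so they compare libraries and are not shares of the reads counted.

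The first comparison asks whether the transcripts of storage carbohydrate genes change in total RNA when 1 of the Rpl22 genes is missing. In input RNA of ΔRPL22A, 7 of the 10 genes fell against wild type and 0 rose, whereas 4.65% of all 5380 genes tested changed in either direction and 2.49% fell. The median log2 fold change was -1.31 over the 10 genes and -0.02 over all genes. Against ΔRPL22B the same strain again had 7 genes lower and 0 higher, where 5.26% of all genes changed and 2.94% fell, and the median was -1.46. Both comparisons share the ΔRPL22A libraries. Changes were called at an adjusted p under 0.05 by edgeR's quasi-likelihood test with Benjamini-Hochberg adjustment over all genes tested. The spread is pooled over the duplicates of all 12 groups, so these p-values do not rest on the compared duplicates alone. In bulk RNA, fewer cells that express a gene and less of its RNA per cell cannot be told apart.

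**Figure D2:**
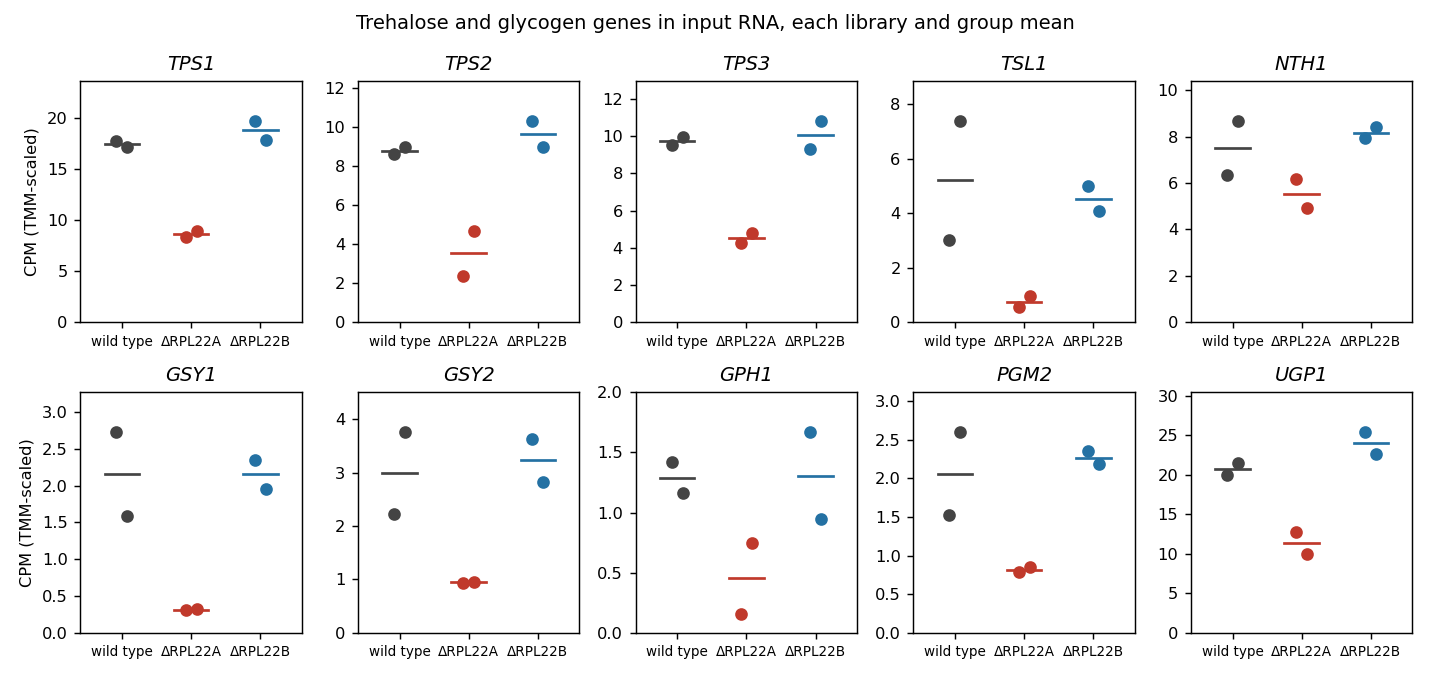
TMM-scaled CPM of the 10 genes in the 2 input libraries of each strain (points) with the group mean (line); each panel has its own axis from 0. For all 10 genes both ΔRPL22A libraries lie below both libraries of the other strains. The 10 panels share the same 2 ΔRPL22A libraries, and the share of all genes that separate in this way was not counted.

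Among the trehalose synthase genes, all 4 fell in ΔRPL22A. TPS1, the synthase subunit, stood at 17.8 and 17.2 CPM in the wild-type input libraries, at 8.3 and 8.96 in ΔRPL22A and at 19.7 and 17.9 in ΔRPL22B. Both ΔRPL22A values were the lowest, and they did not overlap the other strains. The log2 fold change was -1.02 ± 0.28 (SE) against wild type, a 2.03-fold fall (adjusted p = 0.031), and -1.12 ± 0.28 against ΔRPL22B (adjusted p = 0.0157). TPS2, the phosphatase subunit that completes the synthesis, was at 8.6 and 8.96 CPM in wild type, 2.35 and 4.69 in ΔRPL22A and 10.3 and 9 in ΔRPL22B. The ΔRPL22A duplicates differed more from each other here than for TPS1, and still lay below all others. TPS2 fell by 1.34 ± 0.31 on the log2 scale against wild type (adjusted p = 0.00974) and by 1.48 ± 0.30 against ΔRPL22B (adjusted p = 0.00429).

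The regulatory subunits TPS3 and TSL1 are paralogs that hold the complex together. TPS3 had 9.51 and 9.97 CPM in wild type, 4.23 and 4.8 in ΔRPL22A and 9.32 and 10.8 in ΔRPL22B. It fell by 1.11 ± 0.31 on the log2 scale against wild type (adjusted p = 0.0354) and by 1.16 ± 0.31 against ΔRPL22B (adjusted p = 0.0244). DESeq2 called TPS3 against ΔRPL22B only. TSL1 had 3.03 and 7.37 CPM in wild type, 0.548 and 0.96 in ΔRPL22A and 5 and 4.06 in ΔRPL22B. The wild-type duplicates of TSL1 thus stood far apart, and both ΔRPL22A libraries, with 7 and 9 counts, lay below all the others. The log2 fold change of TSL1 was -2.76 ± 0.57 against wild type, a 6.77-fold fall (adjusted p = 0.00372), and -2.60 ± 0.56 against ΔRPL22B (adjusted p = 0.00636). Without wild-type replicate 2 the first value was -1.95 and was not called (adjusted p = 0.187). Of the counts of TSL1 and TPS3 together, TSL1 took 24.2% and 42.5% in the wild-type input libraries and 34.9% and 27.3% in ΔRPL22B. In ΔRPL22A it took 11.5% (95% exact binomial interval 4.74% to 22.2%) and 16.7% (7.92% to 29.3%). Both ΔRPL22A shares lay below the 4 others. The interval of the first ΔRPL22A library lies clear of those of the second wild-type library (33.5% to 51.9%) and the first ΔRPL22B library (27.2% to 43.3%), while both ΔRPL22A intervals overlap that of the first wild-type library (17% to 32.7%). The difference in this share between strains was not tested. Such intervals cover counting error only.

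NTH1 encodes the neutral trehalase that splits trehalose in the cytosol. It had 6.37 and 8.67 CPM in wild-type input, 6.18 and 4.91 in ΔRPL22A and 7.94 and 8.42 in ΔRPL22B. The ΔRPL22A values were the lowest, by a narrow margin against the first wild-type library. The log2 difference of -0.42 from wild type has a 95% interval of -1.10 to 0.26, and that of -0.55 from ΔRPL22B one of -1.21 to 0.11, and neither passed the test (adjusted p = 0.5 and 0.302). The interval against wild type includes both zero and the fold change of TPS1.

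Both glycogen synthase genes fell. GSY1 had 2.73 and 1.59 CPM in wild-type input, 0.313 and 0.32 in ΔRPL22A and 2.35 and 1.96 in ΔRPL22B. These ΔRPL22A values rest on 4 and 3 counts, against 27 and 11 in wild type and 24 and 27 in ΔRPL22B. The log2 fold change was -2.74 ± 0.55 against wild type, a 6.68-fold fall (adjusted p = 0.00279), and -2.69 ± 0.54 against ΔRPL22B (adjusted p = 0.00327). DESeq2 called GSY1 in neither comparison. A fit of only the ΔRPL22A and wild-type input libraries left GSY1 out at the low-count filter. GSY2, the isoform best known in cells entering stationary phase, had 2.22 and 3.76 CPM in wild type, 0.939 and 0.96 in ΔRPL22A and 3.63 and 2.83 in ΔRPL22B. It fell by 1.60 ± 0.41 on the log2 scale against wild type (adjusted p = 0.0184) and by 1.74 ± 0.39 against ΔRPL22B (adjusted p = 0.00768), and DESeq2 called it in neither comparison. Of the counts of the pair, GSY1 took 25% in each ΔRPL22A input library (7.27% to 52.4% and 5.49% to 57.2%), 55.1% and 29.7% in wild type and 39.3% and 40.9% in ΔRPL22B, with overlapping intervals.

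GPH1, the phosphorylase that releases glucose phosphate from glycogen, had 1.42 and 1.16 CPM in wild-type input, 0.157 and 0.747 in ΔRPL22A and 1.67 and 0.943 in ΔRPL22B. The ΔRPL22A libraries held 2 and 7 counts and were the lowest of the 6. The difference was -1.61 on the log2 scale against wild type (95% interval -2.97 to -0.25, adjusted p = 0.162) and -1.58 against ΔRPL22B (adjusted p = 0.127). It was thus as large as that of GSY2, with a wider error, and was not called.

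Of the genes that supply UDP-glucose, UGP1 fell and PGM2 was not called. UGP1, UDP-glucose pyrophosphorylase, had 19.9 and 21.5 CPM in wild-type input, 12.7 and 9.92 in ΔRPL22A and 25.4 and 22.6 in ΔRPL22B. Its log2 fold change was -0.87 ± 0.25 against wild type, a 1.83-fold fall and the smallest among those called (adjusted p = 0.0401), and -1.08 ± 0.25 against ΔRPL22B (adjusted p = 0.00952). The call against wild type was lost with DESeq2, with another scaling, without the ribosomal DNA rows and with no filter. PGM2, the major phosphoglucomutase, had 1.52 and 2.6 CPM in wild type, 0.783 and 0.853 in ΔRPL22A and 2.35 and 2.18 in ΔRPL22B. It was lower in both ΔRPL22A libraries than in all others, and the differences of -1.28 (95% interval -2.31 to -0.25, adjusted p = 0.141) and -1.45 (-2.42 to -0.49, adjusted p = 0.0658) missed the threshold.

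The number of calls in input changed with the library left out, whereas the direction did not. The fits below all draw on the same 2 ΔRPL22A input libraries, so they are no independent check of the direction. How many of all genes kept their sign was not counted. Against wild type, 2 genes were called without wild-type replicate 1 (TSL1 and GSY2), 1 without wild-type replicate 2 (GSY1), 0 without ΔRPL22A replicate 1 and 4 without ΔRPL22A replicate 2 (TPS2, TSL1, GSY1 and GSY2). In each of these fits all 10 log2 differences were below zero, and without ΔRPL22A replicate 1 the median was -1.04, with 7 genes at an unadjusted p under 0.05. Against ΔRPL22B, 0 genes were called without ΔRPL22A replicate 1 or without ΔRPL22B replicate 1, 7 without ΔRPL22A replicate 2 and 4 without ΔRPL22B replicate 2. Over all genes the calls moved too. In both comparisons they fell without ΔRPL22A replicate 1 and rose without ΔRPL22A replicate 2. Without the 4 libraries set apart earlier, 4 genes were called against wild type and 7 against ΔRPL22B.

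ΔRPL22B input showed no such fall. Compared with wild type, 0 of the 10 genes were called, by edgeR and by DESeq2, and 0 had an unadjusted p under 0.05 in either, where 0.335% of all genes were called. The log2 differences ran from -0.16 for TSL1 to 0.21 for UGP1. The 95% intervals lay within -1.14 and 1.07, so smaller differences in either direction are not shown to be absent. For TPS1 the interval was -0.45 to 0.65, and for UGP1 it was -0.29 to 0.71.

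The next comparison repeats the strain differences in RNA bound to ribosomes. The summed level of the 10 genes was 49.5 and 60.1 CPM in wild-type monosomes, 26.4 and 27.9 in ΔRPL22A and 52 and 42.1 in ΔRPL22B. In light polysomes it was 38.1 and 47.5, 26.6 and 20, and 48.3 and 39.2 in the same order of strains. In heavy polysomes it was 80.7 and 83, 45.3 and 42.7, and 78.4 and 88.8. In all 4 pools both ΔRPL22A sums lay below the sums of the other strains, and wild type and ΔRPL22B overlapped. UGP1 and TPS1 supply much of these sums, so the single genes are given next.

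**Figure D3:**
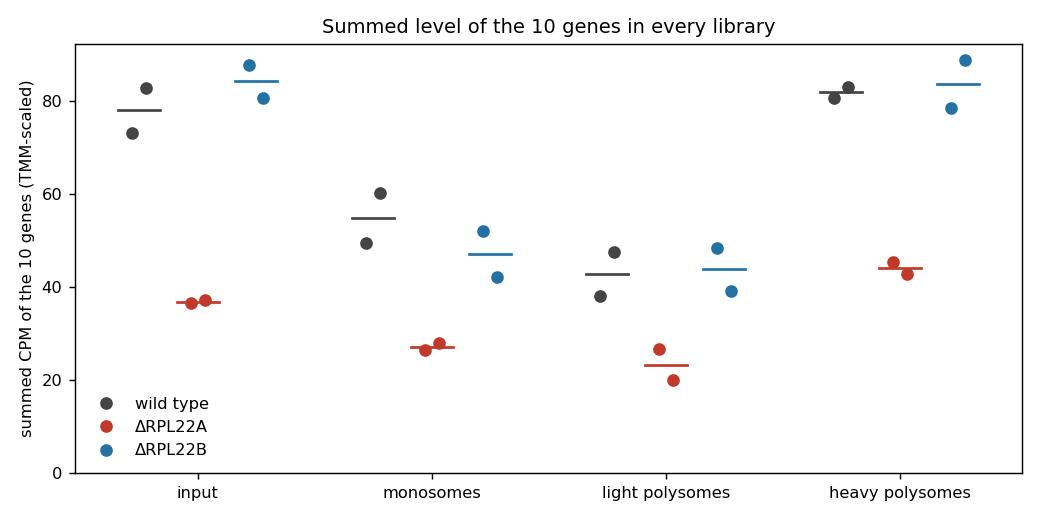
Summed TMM-scaled CPM of the 10 genes in each of the 24 libraries (points) with the group mean (line), by pool and strain. The ΔRPL22A points lie at 36.5 and 37.1 in input against 73.1 to 87.7 in the other strains.

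In monosomes of ΔRPL22A, TPS1 and UGP1 fell against wild type, 2 of the 10 genes, where 5.48% of all genes were called and 2.75% fell. TPS1 had 7.91 and 11.4 CPM in wild type and 3.86 and 3.45 in ΔRPL22A, a log2 fold change of -1.32 ± 0.35 (adjusted p = 0.0236). UGP1 had 17.1 and 21.6 CPM in wild type and 9.81 and 10.4 in ΔRPL22A, a log2 fold change of -0.92 ± 0.27 (adjusted p = 0.0447). Neither gene's groups overlapped, and 0 genes were called when any 1 of the 4 libraries was left out. Against ΔRPL22B monosomes 0 genes were called by edgeR and by DESeq2, with 4 at an unadjusted p under 0.05 by edgeR and 2 by DESeq2, where 3.09% of all genes were called. All 10 differences from each of the other strains were below zero, with medians of -0.95 and -0.93, against -0.03 and -0.01 over all genes. The share of all genes below zero in both was not counted.

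In light polysomes of ΔRPL22A, TPS2 and GSY1 were lower than in both other strains, where 5.39% of all genes were called against wild type (1.97% lower) and 7.19% against ΔRPL22B (2.99% lower). TPS2 had 4.61 and 5.05 CPM in wild type, 1.61 and 1.15 in ΔRPL22A and 4.76 and 3 in ΔRPL22B. Its log2 fold change was -1.73 ± 0.44 against wild type (adjusted p = 0.0143) and -1.45 ± 0.40 against ΔRPL22B (adjusted p = 0.0263). The call of TPS2 against ΔRPL22B was lost with DESeq2 and in the fit of the compared groups alone, which called 0.0223% of all genes. Over 12 alternatives its value against ΔRPL22B ran from -1.74 to -0.87. Duplicates scattered most in light polysomes of ΔRPL22A (chi-square over degrees of freedom 20) and ΔRPL22B (34.3), against at most 9.79 in other groups. The spread pooled over all groups may understate the scatter of these duplicates. GSY1 had 1.38 and 3.36 CPM in wild type, 0.346 and 0.192 in ΔRPL22A and 2.32 and 1.2 in ΔRPL22B. With 3 and 1 counts in ΔRPL22A, its log2 fold changes of -2.82 ± 0.74 (adjusted p = 0.0188) and -2.57 ± 0.67 (adjusted p = 0.0172) are imprecise, and DESeq2 called neither. Fits of the compared groups alone left GSY1 out at the low-count filter. Against wild type the value of GSY1 was -3.46 without wild-type replicate 1 and -2.19 without wild-type replicate 2, and against ΔRPL22B it was -1.98 without ΔRPL22B replicate 1. Against wild type 1 gene was called without wild-type replicate 1 (GSY1), and 0 without wild-type replicate 2 or either ΔRPL22A library. Against ΔRPL22B 0 were called without either ΔRPL22A library, 1 without ΔRPL22B replicate 1 (PGM2) and 3 without ΔRPL22B replicate 2. GPH1 and PGM2 had too few reads in this group for a fold change, 2 and 0 counts for GPH1 and 1 and 2 for PGM2, and TSL1 had 6 and 0.

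In heavy polysomes of ΔRPL22A, TPS1 fell against wild type, 1 of the 10 genes, where 3.27% of all genes were called and 1.88% fell. TPS1 had 22.9 and 19.4 CPM in wild type, 9.77 and 5.45 in ΔRPL22A and 17.2 and 18.4 in ΔRPL22B. Its log2 fold change was -1.42 ± 0.30 against wild type (adjusted p = 0.00451) and -1.17 ± 0.30 against ΔRPL22B (adjusted p = 0.0194). UGP1 was also lower than in ΔRPL22B, where 5.43% of all genes were called and 2.97% were lower, with 27.3 and 33.9 CPM in ΔRPL22B and 14.9 and 12.3 in ΔRPL22A (log2 fold change -1.16 ± 0.26, adjusted p = 0.00803). Against wild type its difference was -0.88 with an adjusted p of 0.0549. TPS3 had the smallest difference from wild type here, with 8.75 and 12 CPM in wild type and 7.62 and 10.9 in ΔRPL22A, so that the groups overlapped (log2 difference -0.20, 95% interval -0.87 to 0.47). The groups of NTH1 overlapped too, with 3.95 and 8.41 CPM in wild type and 5.18 and 5 in ΔRPL22A, as did those of GPH1. NTH1 was the exception in direction, with a difference of 0.19 from ΔRPL22B (adjusted p = 0.853). Against wild type 0 genes were called without ΔRPL22A replicate 2, and without wild-type replicate 1 the 1 gene called was PGM2. Against ΔRPL22B 1 gene was called without ΔRPL22A replicate 1 or ΔRPL22B replicate 1 and 0 without replicate 2 of either strain. Without the 4 libraries set apart earlier 6 genes were called against ΔRPL22B. Calls over all genes rose there as well, from 5.43% to 13.9%.

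Between ΔRPL22B and wild type 0 of the 10 genes were called in monosomes, light polysomes or heavy polysomes, by edgeR and by DESeq2, and 0 had an unadjusted p under 0.05. Of all genes 0.353%, 0.353% and 0.316% were called in these pools. The widest difference was 0.99 for PGM2 in monosomes, with a 95% interval of -0.28 to 2.26, and TPS1 had -0.70 there (-1.42 to 0.03).

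**Figure D4:**
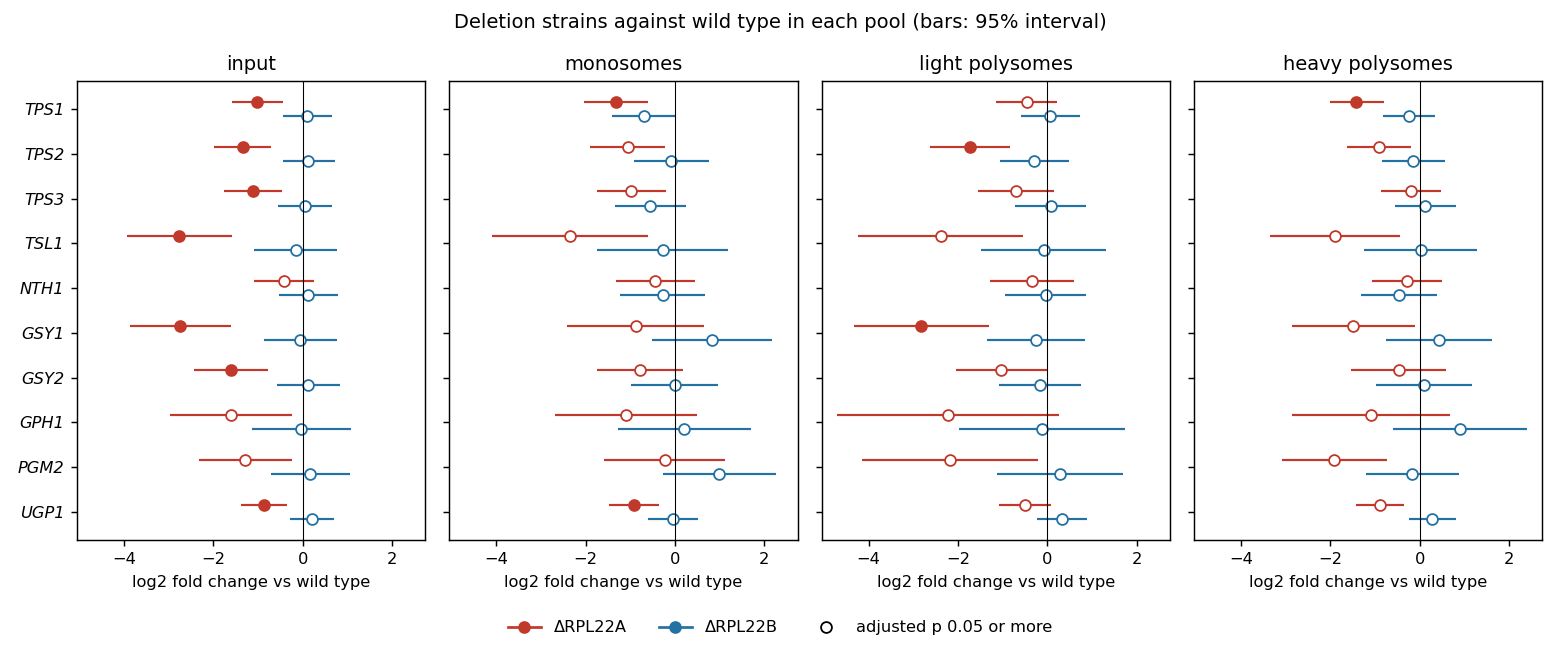
Log2 fold change of ΔRPL22A (red) and ΔRPL22B (blue) against wild type for the 10 genes in each pool, with 95% intervals; filled points have an adjusted p under 0.05. Red points lie below zero for all 10 genes in every pool, and blue points lie on both sides of zero. The share of all genes below zero in every pool was not counted. The light polysome values of GPH1 and PGM2 rest on 2 and 3 counts in ΔRPL22A.

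Within a strain, the ratio of a ribosome fraction to input describes where a transcript sits among the fractions relative to all other transcripts, and it is no absolute occupancy. TPS1, TPS2, TPS3, TSL1, NTH1 and UGP1 had log2 ratios below zero in monosomes and light polysomes of all 3 strains, and the calls among them differed by strain. The other genes, GSY1, GSY2, GPH1 and PGM2, lay above zero in ΔRPL22A monosomes. In wild-type monosomes TPS1 (log2 fold change -0.92 ± 0.30, adjusted p = 0.0191) and TPS2 (-0.99 ± 0.33, adjusted p = 0.0241) were lower than in input, 2 of 10 genes, where 30.8% of all genes were called and 13.6% were lower. In wild-type light polysomes 3 genes were lower, TPS1 (-1.10 ± 0.31, adjusted p = 0.00702), TPS3 (-1.12 ± 0.36, adjusted p = 0.018) and UGP1 (-0.80 ± 0.27, adjusted p = 0.0226), where 34.4% were called and 13.6% were lower. In 10 genes, 2 and 3 lower calls are too few to set apart from the 13.6% of all genes that were lower, and no test of this was run. In wild-type heavy polysomes 0 genes were called by edgeR and by DESeq2, 0 had an unadjusted p under 0.05, and 10.3% of all genes were called. The differences ran from -0.63 for GSY2 to 0.67 for PGM2. Without either input library, or without monosome replicate 1, 0 genes were called in wild-type monosomes, and 1 (TPS1) without monosome replicate 2. In light polysomes 1 to 2 genes were called when a library was left out, 1 without either input library or light replicate 1 and 2 without light replicate 2. The value of TPS3 there was -1.72 without light replicate 1.

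In ΔRPL22B the same ratios had 4 genes lower in monosomes, where 29.4% of all genes were called and 12.7% were lower. TPS1 had 19.7 and 17.9 CPM in input and 6.96 and 4.13 in monosomes, a log2 fold change of -1.72 ± 0.33 (adjusted p = 0.000267) that held without each of the 4 libraries. The others were TPS2 at -1.20, NTH1 at -1.17 and TPS3 at -1.02, with adjusted p from 0.0134 to 0.0352. In light polysomes 5 genes were lower, where 33.0% of all genes were called and 12.4% were lower. TPS2 was at -1.29 ± 0.31 (adjusted p = 0.00199), TPS1 at -1.14 ± 0.28 (adjusted p = 0.00248), NTH1 at -1.20, TPS3 at -1.09 and UGP1 at -0.69. In heavy polysomes 0 were called by edgeR and by DESeq2, with 1 at an unadjusted p under 0.05 in each, where 16.5% of all genes were called. In monosomes 1 gene (TPS1) was called without input replicate 1 or monosome replicate 1 and 2 without the other replicates. In light polysomes 2 genes were called without input replicate 2 or light replicate 2, 4 without input replicate 1 and 5 without light replicate 1.

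In ΔRPL22A, TPS1 was lower in monosomes than in input, at 3.86 and 3.45 CPM against 8.3 and 8.96 (log2 fold change -1.22 ± 0.33, adjusted p = 0.0129), 1 of 10 genes where 13.7% of all genes were called and 5.54% were lower. TPS2 was lower in light polysomes, at 1.61 and 1.15 CPM against 2.35 and 4.69 (-1.26 ± 0.40, adjusted p = 0.0191), where 25.6% were called and 8.38% were lower. TPS3 was higher in heavy polysomes than in input, at 7.62 and 10.9 CPM against 4.23 and 4.8 (1.01 ± 0.32, adjusted p = 0.0311), where 16.9% were called in either direction. This was the only rise called for the 10 genes in the comparisons of a fraction with input. It was not called by DESeq2 or when any 1 of the 4 libraries was left out. TPS1 in monosomes was called without input replicate 1 and not without the other 3 libraries, and TPS2 in light polysomes likewise. Without light replicate 1, NTH1 was called in its place.

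**Figure D5:**
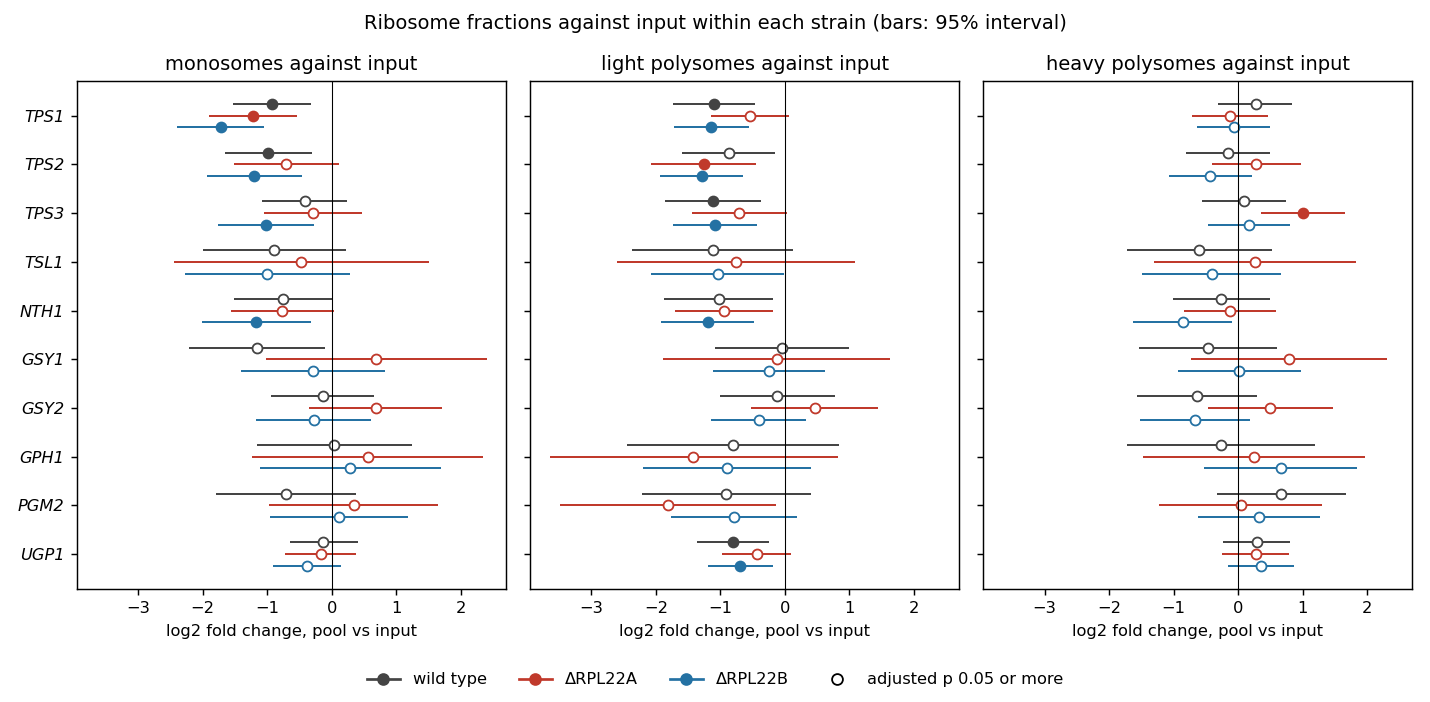
Log2 fold change of monosomes, light polysomes and heavy polysomes against input within each strain for the 10 genes, with 95% intervals; filled points have an adjusted p under 0.05. TPS1, TPS2, TPS3, TSL1, NTH1 and UGP1 lie below zero in monosomes and light polysomes of all 3 strains. GSY1, GSY2, GPH1 and PGM2 lie above zero in ΔRPL22A monosomes.

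Whether the deletions moved the genes between fractions beyond the change in input was tested as the difference between strains in the ratio of a fraction to input. In the 9 such comparisons 0 of the 10 genes were called by edgeR or by DESeq2, and 0 had an unadjusted p under 0.05 by edgeR. Of all genes 3 were called for light polysomes between ΔRPL22A and wild type, 0.0558%, and 0 in the other 8 comparisons. TPS3 had a difference of 0.91 for heavy polysomes between ΔRPL22A and wild type (95% interval -0.01 to 1.84) and 0.84 between ΔRPL22A and ΔRPL22B (-0.07 to 1.75). GSY2 had 1.13 (-0.21 to 2.48) and 1.17 (-0.13 to 2.46). These intervals reach past a doubling of the ratio, so that the depth leaves changes of that size undetermined.

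Other genes of the same pathway were taken from lists of 25 genes for trehalose breakdown and uptake, glycogen start and branching, control of glycogen synthase and glucose phosphates, of which 23 could be tested. In ΔRPL22A input, where 2.49% of all genes fell against wild type, 2 of the 23 fell and 0 rose, with a median log2 difference of -0.53. These were GLK1, glucokinase (log2 fold change -2.33 ± 0.34, adjusted p = 3.63e-05), and HXK1, a hexokinase (-2.80 ± 0.77, adjusted p = 0.0316, on 6 counts in ΔRPL22A). GLK1 stood at 3.02 CPM in ΔRPL22A and 15.4 in wild type, and it was also called lower in the other pools, with a log2 fold change of -2.98 in heavy polysomes (adjusted p = 5.58e-07). Against ΔRPL22B 3 fell, where 2.94% of all genes were lower. They were GLK1 (-2.46 ± 0.33, adjusted p = 4.04e-05), HXK1 (-3.32 ± 0.71, adjusted p = 0.00562) and GLG2, a glycogenin that starts new glycogen chains (-1.49 ± 0.41, adjusted p = 0.0314). Of the 10 tested genes that control glycogen synthase 0 were called in either comparison, with medians of -0.15 and -0.52. Of all genes 4.65% and 5.26% were called in these comparisons. In ΔRPL22B input 0 of the 23 were called against wild type, where 0.335% of all genes were called. Without single input libraries the calls of ΔRPL22A against wild type ranged from 1 to 2, with 1 without either wild-type library or ΔRPL22A replicate 1. Against ΔRPL22B they ranged from 1 to 3, with 1 without ΔRPL22A replicate 1 or ΔRPL22B replicate 1.

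Of a list of 20 genes known as targets of Msn2 and Msn4 outside the pathway, 16 were tested. In ΔRPL22A input against wild type, where 2.49% of all genes were lower, 5 of the 16 were lower and 0 higher, with a median of -1.08. They were HSP78, a mitochondrial chaperone (log2 fold change -3.76 ± 0.58, adjusted p = 8.79e-05, on 5 counts in ΔRPL22A), HSP104, which dissolves protein aggregates (-1.77 ± 0.34, adjusted p = 0.00155), and PNC1, a nicotinamidase (-2.12 ± 0.41, adjusted p = 0.00155). GPD1, for glycerol synthesis, followed (-1.14 ± 0.28, adjusted p = 0.0149), and HSP42, a small heat shock protein, was the last (-2.33 ± 0.61, adjusted p = 0.0233). Against ΔRPL22B 5 were lower and 0 higher, where 2.94% of all genes were lower. Between ΔRPL22B and wild type 0 were called, where 0.335% of all genes were called. The count against wild type was 1 without wild-type replicate 2 or ΔRPL22A replicate 1, and that against ΔRPL22B was 3 without ΔRPL22A replicate 1 or ΔRPL22B replicate 1.

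Across the 12 group means, each gene's log2 CPM followed the mean profile of the 10 genes with a Pearson correlation between 0.69 for GSY2 and 0.97 for TPS2 and TSL1; each gene is part of that mean. Among 1334 other genes whose mean over the groups reached 10 CPM, those most like the profile were PDR5, a drug efflux pump of the plasma membrane (0.98), SSA1, a cytosolic chaperone (0.93), EDE1, an endocytosis protein (0.93), ALD6, an aldehyde dehydrogenase (0.92), and SAM2, an S-adenosylmethionine synthetase (0.91). The 12 points share libraries, depth and the strain and pool differences described above, so these values are a description.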

How the data were processed

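For 24 libraries the authors deposited 1 table of raw counts by gene, all of them whole numbers. Per the submitters' processing notes the tools were RSEM 1.2.18, SAMtools 0.1.19 and cutadapt 1.4, and sacCer3 was the genome; the notes give no roles. Reads of 2 lanes were merged, per the series design, and polyA RNA is the labelled molecule. Of 6369 genes 5908 matched the R64 annotation, and 0 columns were left unassigned.

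Counts were tested as deposited with edgeR 4.0.16 in R 4.3.3. filterByExpr (minimum count 10, minimum total 15) kept 5380 genes, libraries were scaled by TMM, and 1 model with a mean for each of 12 groups was fitted to all 24 libraries (12 residual degrees of freedom, prior 16.1). Contrasts were tested by edgeR's quasi-likelihood test, with p-values adjusted over all genes kept (Benjamini-Hochberg) and called at 0.05. Standard errors were obtained from the log2 fold change and the F statistic. Duplicates differed by more than sampling noise (chi-square per degree of freedom 1.83 to 34.3), and each library counts as 1 replicate. Where a library was left out, the lone library of that group was taken to vary as the other groups do. Likeness of profile used log2 CPM with a prior count of 2.

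The 10 genes and the lists were chosen with earlier results of these data known. All 10 genes are named, and of the other pathway genes those called with the smallest adjusted p, up to 4 for each comparison. The stress genes called in input of ΔRPL22A were all named after their values were seen. Alternatives were other scalings, no filter, DESeq2 1.42.0, fits of the compared groups, a replicate block, and libraries left out. The method was run on simulated data in which only genes with higher mean counts were changed, so its recovery of low-count genes was not tested. Promoters came from the RefSeq genome, read with Biopython 1.88.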

Additional observations from a re-analysis of the deposited data

How the results depend on the processing

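No fold change of the 10 genes that was called between strains or against input turned its sign in any alternative. The 40 calls gave 477 values under the alternatives, of which 337 kept the call and 140 lost it. With DESeq2 the calls among the 10 genes for ΔRPL22A against wild type were 3 in input, 1 in light and 2 in heavy polysomes. Of all genes it called 4.48%, 6.87% and 6.52% there. DESeq2 gave 5 against ΔRPL22B in input, without GSY1 and GSY2, and 0 in light polysomes, where 6.8% and 7.88% of all genes were called. Against input it gave 1 in wild-type monosomes, 0 in ΔRPL22A heavy polysomes and 2 in ΔRPL22B monosomes, where 23.6%, 13.1% and 22.8% of all genes were called. It also gave 1 other pathway gene and 3 stress genes for ΔRPL22A against ΔRPL22B in input. Without the 4 libraries set apart earlier, ΔRPL22A against wild type had 4 calls in input, 4 in monosomes and 2 in heavy polysomes, and ΔRPL22A against ΔRPL22B had 1 in monosomes, 1 in light and 6 in heavy polysomes. That setting gave 3 calls for wild-type monosomes and 5 for wild-type light polysomes against input, 6 for ΔRPL22B light polysomes, 2 and 0 for ΔRPL22A monosomes and heavy polysomes, and 1 for ΔRPL22B heavy polysomes. Calls over all genes rose in that setting too. Between strains they were 14% in ΔRPL22A monosomes against wild type, and 9.73% in monosomes and 13.9% in heavy polysomes against ΔRPL22B. Against input they were 41.1% for wild-type monosomes, 40.4% for wild-type light and 26.8% for ΔRPL22B heavy polysomes. Without the ribosomal DNA rows there was 1 call for ΔRPL22A against wild type in monosomes, 5 for wild-type light polysomes against input and 2 for ΔRPL22A light polysomes against input. Of all genes 5.93%, 36% and 27.1% were called there. With no filter there were 4 calls against ΔRPL22B in light polysomes, 3 against wild type in heavy polysomes and 2 for ΔRPL22A light polysomes against input. Of all genes 6.78%, 3.74% and 22.3% were called there. Fits of the compared groups gave 1 call against ΔRPL22B in monosomes, 1 against wild type and 0 against ΔRPL22B in light polysomes, and 0 and 5 in heavy polysomes. They gave 6 for wild-type light and 1 for ΔRPL22B heavy polysomes against input, where 52.1% and 33.2% of all genes were called. Against ΔRPL22B they called 13.7% of all genes in monosomes, 0.0223% in light and 16.5% in heavy polysomes. Against wild type they called 7.98% in light and 1.87% in heavy polysomes. These fits left out some low genes that passed the filter over all libraries. The cause of these moves was not tested. The replicate block gave 7 and 8 calls for ΔRPL22A input against wild type and ΔRPL22B and 1 for ΔRPL22A against wild type in monosomes. Of all genes 4.52%, 5.07% and 5.04% were called there. Deviations of same-numbered libraries correlated at -0.4 to 0.21 over 30 pairs of groups, with 4 over 0.1, so the numbers were not taken to pair the samples. Leaving out 1 library at a time gave 0 to 4 calls for ΔRPL22A input against wild type and 0 to 7 against ΔRPL22B. It gave 0 to 0 in monosomes against wild type, 0 to 1 in light polysomes against wild type and 0 to 3 against ΔRPL22B, and 0 to 1 in heavy polysomes against each. Against input it gave 0 to 1 for wild-type monosomes, 1 to 2 for wild-type light polysomes, 0 to 1 for ΔRPL22A monosomes and light polysomes and 0 to 0 for its heavy polysomes. It gave 1 to 2 for ΔRPL22B monosomes and 2 to 5 for its light polysomes. Other pathway genes ranged from 1 to 2 and 1 to 3 against wild type and ΔRPL22B in input, and stress genes from 1 to 5 and 3 to 5. The other scalings moved the median of all genes by -0.10 to 0.09 on the log2 scale. With 97 to 1112 counts for the 10 genes per library, the depth limits GSY1, GSY2, GPH1, PGM2 and TSL1 most.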
